A study of Mus musculus with 2 samples.

Results

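The transcripts described here encode the enzymes that build cholesterol, the proteins that sense sterols and set the output of that pathway, and the proteins that take cholesterol up, move it between membranes and export it. A list of 30 such genes was read on both arrays of the series, and 27 of them had at least 1 probe set whose annotation names only that gene, of 18193 genes measured in this way. These were 17 synthesis genes, 4 regulators of SREBP (sterol regulatory element binding protein) and 6 genes of uptake, transport and efflux. Each gene took the value of its brightest probe set, that is the one with the highest mean of the 2 arrays. Acat2, Nr1h2 and Soat1 were not analysed here.

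The series profiled mouse B cells with and without the microRNA miR-155, on 1 Affymetrix array labelled as miR-155 knockout (the KO-labelled array below) and 1 labelled as wild-type (the WT-labelled array). The titles and genotype entries give this assignment, while the source names give the opposite genotype for both arrays. Should the source names be the correct ones, each difference given here would change sign. Both labels share a C57 background, male donors, and exposure to cycloheximide, an inhibitor of translation, at 100 ug/ml for 8 min before harvest. The series calls the cells cultured and activated B cells, whereas the growth text describes haematopoietic progenitors kept for 6 days with granulocyte colony-stimulating factor and stem cell factor. The microRNA that defines the genotypes is printed first, since the arrays are named by it. RefSeq places the mature strand at chr16:84714143-84714165 on the plus strand of GRCm38.p6, and capitals mark its seed, bases 2 to 8.
mmu-miR-155-5p: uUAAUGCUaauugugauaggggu

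Cells make cholesterol from acetyl-CoA through the mevalonate pathway to farnesyl diphosphate, join that intermediate into squalene, close the rings to lanosterol and then trim lanosterol to cholesterol. When sterols in the endoplasmic reticulum are low, SCAP carries the precursor of SREBP2 to the Golgi, where it is cut to release an active transcription factor, and INSIG proteins hold SCAP back when sterols are plentiful. Liver X receptors (LXR) act in the opposite state and switch on export through the transporters ABCA1 and ABCG1. Dividing lymphocytes are known to raise sterol synthesis to make new membranes, and interferon signalling is known to lower it in macrophages.

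All differences are log2 intensities on the KO-labelled array minus those on the WT-labelled array, so 1 unit is a 2-fold change. With 1 array per label there is no spread between animals or cultures, no difference could be tested, so precision is limited by the count of arrays. Genes counted as expressed where the mean of both arrays reached 6.71, the median level of the probe sets without the array controls, and 10717 genes did. All 27 cholesterol genes passed, although Abca1 did so only through its level on the WT-labelled array. As a technical yardstick, the differences of the 2 brightest expressed probe sets of a gene lay 0.084 apart in the median gene of 4906 with 2 such sets. They lay 0.31 or more apart in the top 5%. Both probe sets were read on the same 2 arrays, so the yardstick holds no spread between arrays, cultures or animals. Mir155hg, the host transcript of miR-155, read 10.88 on the KO-labelled array and 6.63 on the WT-labelled array, which goes against the genotype labels, and whether its probe set falls inside the deleted segment was not determined here. The 13 measured B cell markers, among them Cd79a, Ms4a1 and Pax5, lay at or above 6.71 on both arrays. Neutrophil and precursor markers did so in 2 of 10 cases, and of 7 measured stem and progenitor markers 1 did.

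Cholesterol synthesis genes were higher on the KO-labelled array at every step that was measured. All 17 were higher (16 after subtraction of a loess curve, as described for Pmvk), by 0.05 to 0.64 (1.04-fold to 1.55-fold), with a median of 0.29, against a median of 0.03 over all expressed genes, of which 56.9% were higher (49.2% with quantile normalization and 47.4% with loess subtraction). In 10 of the 17 the difference was 0.25 or more, a mark that 7.60% of expressed genes reached. Dhcr7 and Lss passed 0.5, as did 0.681% of expressed genes. In 7 of the 17 it was above 0.31, the 95th percentile of the probe set yardstick, against 4.26% of expressed genes. The differences are small beside those of single genes elsewhere on the arrays, and they are shared by nearly the whole pathway. In RNA from a whole culture, fewer cells of a type and less RNA per cell cannot be told apart.

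**Figure D1:**
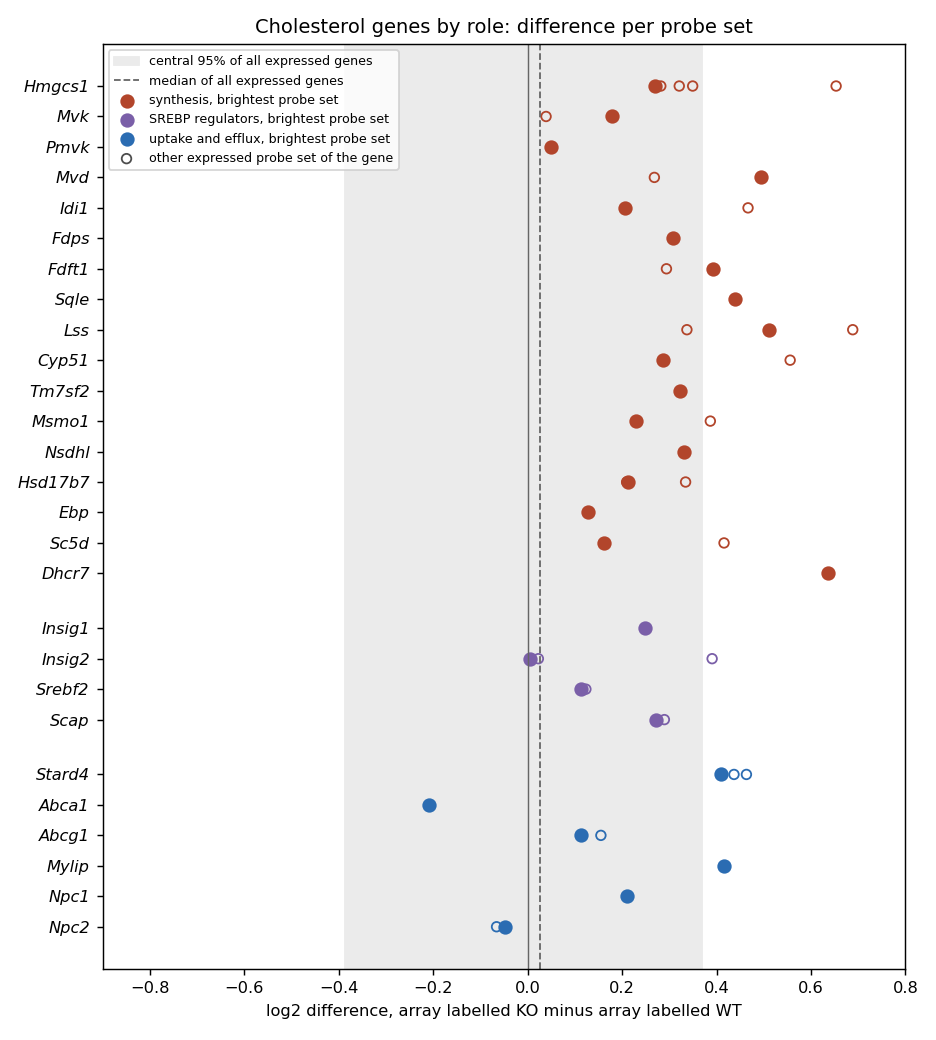
Log2 difference (array labelled KO minus array labelled WT) of each cholesterol gene, by role from synthesis at the top to uptake and efflux at the bottom. Filled points are the brightest probe set and open points the other expressed probe sets. The grey band is the central 95% of all expressed genes (-0.39 to 0.37) and the dashed line their median (0.03). Every synthesis point lies right of 0 (Pmvk, at 0.05, came to -0.0003 after loess subtraction), while Abca1 and Npc2 lie left of it.

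The early enzymes, which lead to farnesyl diphosphate, had a median difference of 0.24 over 6 genes. Hmgcs1, the cytosolic synthase that condenses acetyl units into HMG-CoA, read 12.66 on the KO-labelled array and 12.39 on the WT-labelled array, a difference of 0.27. Mevalonate is then phosphorylated by the kinase encoded by Mvk, which read 9.02 and 8.84 on the KO-labelled and WT-labelled arrays (0.18). Pmvk, the kinase of the next step, read 9.74 on the KO-labelled array and 9.70 on the WT-labelled array, and its difference of 0.05 was the smallest of the synthesis genes and came to -0.0003 after a loess curve was subtracted. Pmvk therefore lay within the probe set yardstick and had no settled direction. Mvd, the decarboxylase that yields isopentenyl diphosphate, had the largest difference of the early enzymes at the brightest probe set. It read 9.44 on the KO-labelled array and 8.95 on the WT-labelled array (0.49, 1.41-fold). Idi1, the isomerase of that product, read 12.54 and 12.34 on the KO-labelled and WT-labelled arrays (0.21). Fdps, which joins isoprene units into farnesyl diphosphate, read 12.99 on the KO-labelled array and 12.68 on the WT-labelled array (0.31). At their brightest probe sets the early enzymes thus differed among themselves, with adjacent steps at 0.05 and 0.49. With all probe sets of a gene averaged, Mvd was at 0.381, close to Hmgcs1 (0.375) and Idi1 (0.336), and Pmvk stayed at 0.05.

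The 3 enzymes that commit farnesyl diphosphate to sterols had the highest median of any step, 0.44, and each lay above the yardstick. Fdft1, squalene synthase, read 11.53 on the KO-labelled array and 11.13 on the WT-labelled array (0.39). Sqle, the epoxidase that adds oxygen to squalene and limits flux late in the pathway, read 11.65 on the KO-labelled array and 11.22 on the WT-labelled array (0.44). Lss, which closes the rings to lanosterol, read 10.47 on the KO-labelled array and 9.96 on the WT-labelled array (0.51, 1.43-fold). Only 65 expressed genes, 0.607% of them, were higher on the KO-labelled array by more than Lss, and 199 differed by more in either direction.

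The 8 enzymes from lanosterol to cholesterol had a median of 0.26. Dhcr7, the reductase of the last step of one branch and the enzyme deficient in Smith-Lemli-Opitz syndrome, read 9.40 on the KO-labelled array and 8.76 on the WT-labelled array. Its difference of 0.64 (1.55-fold) was the largest of all 27 genes, with 29 expressed genes higher by more and 107 differing by more in either direction. Nsdhl and Tm7sf2 followed. Nsdhl, which works in removing the methyl groups at carbon 4, read 10.38 on the KO-labelled array and 10.05 on the WT-labelled array (0.33), and Tm7sf2, a sterol reductase, read 8.33 on the KO-labelled array and 8.00 on the WT-labelled array (0.32). Cyp51, the lanosterol demethylase, read 10.90 on the KO-labelled array and 10.61 on the WT-labelled array (0.29). Msmo1, the methylsterol oxidase, read 11.48 and 11.25 on the KO-labelled and WT-labelled arrays (0.23), and Hsd17b7, a ketoreductase of the same demethylation, read 9.92 and 9.71 in that order of arrays (0.21). The least different were Sc5d, a desaturase, with 11.01 on the KO-labelled array and 10.85 on the WT-labelled array (0.16), and Ebp, an isomerase, with 10.43 on the KO-labelled array and 10.30 on the WT-labelled array (0.13).

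**Figure D2:**
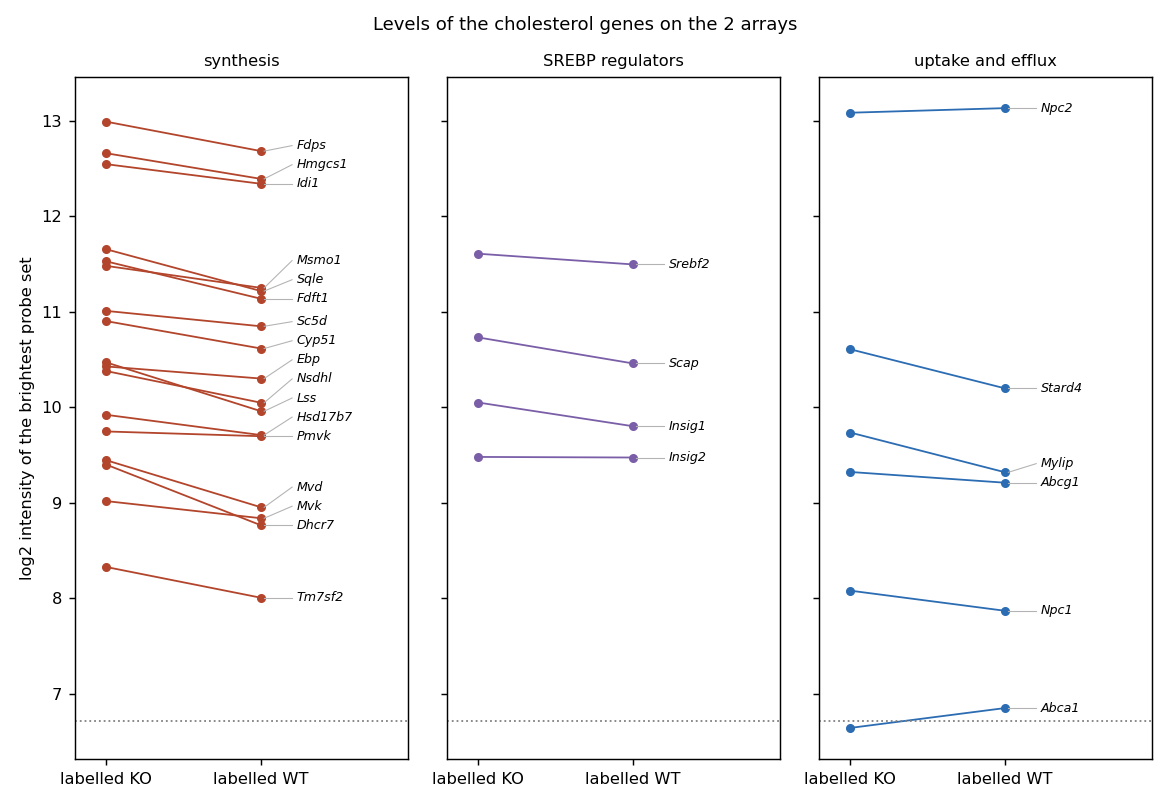
Log2 intensity of the brightest probe set of each gene (vertical axis) on the array labelled KO and the array labelled WT, joined by a line, in 3 panels by role. The dotted line is the level of 6.71 at which a gene counted as expressed. Lines of the 17 synthesis genes slope down to the right, Insig2 is flat, and Npc2 and Abca1 slope up. Levels of different probe sets are not comparable.

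Among expressed probe sets of the synthesis genes the direction did not depend on which was read. Of 38 probe sets of the synthesis genes 32 were expressed and all 32 were higher on the KO-labelled array, with a median of 0.32, whereas 11271 of 19171 expressed probe sets of all genes were higher, with a median of 0.03. The dimmer probe sets of Lss passed 6.71 through the KO-labelled array alone (7.22 and 6.99, against 6.535 and 6.65 on the WT-labelled array). The size of the difference did vary. The 5 expressed probe sets of Hmgcs1 ranged from 0.27 to 0.65, the 2 of Cyp51 were 0.29 and 0.56, the 2 of Idi1 were 0.21 and 0.47, and the 2 of Sc5d were 0.16 and 0.42. In these 4 genes the brightest probe set gave the smallest difference, so the values quoted above are the low end of what their probe sets showed. In Mvd and Mvk it was the other way round, with 0.49 and 0.27 for Mvd and 0.18 and 0.04 for Mvk, brightest first. Across the 10 synthesis genes with several expressed probe sets the second brightest gave the larger difference in 6. It did so in 50.9% of all 4906 genes with 2 or more. Among the 1613 genes whose brightest difference was 0.1 or more, as in these 10, the share was 35.5%. Another 6 probe sets of synthesis genes lay under 6.71, of which 2 were lower on the KO-labelled array. These belonged to Fdft1 (-0.13, mean level 6.69) and Cyp51 (-0.10, mean level 6.63), close under the threshold. The shared direction therefore holds only for probe sets that passed the threshold.

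The regulators of SREBP had a median difference of 0.18 over 4 genes, below the 0.29 of the enzymes. The ranges overlapped, at 0.01 to 0.27 for the regulators and 0.05 to 0.64 for the enzymes. Of the 4 regulators, 0 passed the yardstick of 0.31, beside 4.26% of expressed genes, and 1 reached 0.25, beside 7.60%. Scap, the escort of the SREBP precursors, read 10.73 on the KO-labelled array and 10.46 on the WT-labelled array (0.27). Insig1, which retains SCAP in the endoplasmic reticulum and is itself a transcriptional target of SREBP, read 10.05 on the KO-labelled array and 9.80 on the WT-labelled array (0.25). Srebf2, the gene of SREBP2, read 11.61 and 11.49 on the KO-labelled and WT-labelled arrays (0.11), and its 2 probe sets gave 0.11 and 0.12. Insig2, the second retention factor, read 9.48 on the KO-labelled array and 9.47 on the WT-labelled array. Its difference of 0.01 was -0.04 after quantile normalization and -0.05 after loess subtraction, and the dimmest of its 3 probe sets gave 0.39. Under either scaling 3 of the 4 regulators instead of 4 were higher. The share over all expressed genes was 56.9% in the main setting, 49.2% with quantile normalization and 47.4% with loess subtraction. The gene of the transcription factor itself thus differed by less than 16 of the 17 enzyme genes.

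Genes of uptake, transport and efflux were mixed. Of 6 measured, 4 were higher and 2 lower on the KO-labelled array (beside 56.9% higher and 42.1% lower among all expressed genes), with a median of 0.16. Of these, 2 passed 0.25 upward, beside 7.60% of expressed genes, and 2 passed the yardstick of 0.31, beside 4.26%. None reached 0.25 downward, as 6.40% of expressed genes did. Stard4, a cytosolic carrier that moves cholesterol between membranes and a known SREBP2 target, read 10.61 on the KO-labelled array and 10.20 on the WT-labelled array (0.41, 1.33-fold). Its 3 probe sets gave 0.41 to 0.46. Mylip, also called IDOL, a ubiquitin ligase that sends lipoprotein receptors for degradation and a known LXR target, read 9.73 on the KO-labelled array and 9.32 on the WT-labelled array (0.42, 1.33-fold). Npc1 and Npc2 hand cholesterol out of late endosomes and lysosomes, and they did not move together. Npc1, the membrane protein, read 8.08 on the KO-labelled array and 7.87 on the WT-labelled array (0.21). Npc2, the soluble partner, read 13.08 on the KO-labelled array and 13.13 on the WT-labelled array (-0.05), within the yardstick, and its second expressed probe set gave -0.07.

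The efflux transporters did not share a direction at their brightest probe sets, and neither reached 0.25 either way. Abcg1 read 9.32 on the KO-labelled array and 9.21 on the WT-labelled array (0.11), and its second probe set gave 0.16. That second probe set passed the threshold through the KO-labelled array alone (6.85, against 6.69 on the WT-labelled array). Abca1 read 6.64 on the KO-labelled array and 6.85 on the WT-labelled array, a difference of -0.21, which was the lowest of the 27 genes. Its level lay next to the expression threshold, at percentile 50.5 of all probe sets, and its other 2 probe sets, both under the threshold, gave -0.06 and 0.21, and its sign was therefore not the same for each probe set. The 3 measured LXR-linked genes, Abca1, Abcg1 and Mylip, were at -0.21, 0.11 and 0.42. The one below 0, Abca1, is the one that passed the expression threshold through the WT-labelled array alone, and the other two are both higher. Macrophages are known to express ABCA1. Of 12 macrophage and monocyte markers 8 were expressed, and 6 of these were lower on the KO-labelled array, with a median of -0.22, beside 42.1% lower among all expressed genes. One of the 6, Fcgr1, passed the threshold through the WT-labelled array alone (6.69 on the KO-labelled array and 6.89 on the WT-labelled array). Over all 12 the median level was 6.87 on the KO-labelled array and 7.12 on the WT-labelled array, and Cd163, Mrc1, Itgam and Mertk lay under 6.71 on both arrays. The part of such cells in the Abca1 value was not tested.

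Set side by side, synthesis genes had a median of 0.29 and uptake and efflux genes one of 0.16, a gap of 0.13. Without Abca1, left out after its value was seen, the uptake and efflux median was 0.21 and the gap 0.08. The groups overlapped: 2 of the 6 uptake and efflux genes, Abca1 and Npc2, lay below the lowest synthesis gene, and 4 of the 17 synthesis genes lay above the highest uptake and efflux gene. The gap shrank to 0.02 when only genes at or above the 75th percentile of levels (8.84) were kept, which removed Abca1 and Npc1 from the 6.

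Genes that surround the pathway differed less as a group. From a list of 44 further sterol and isoprenoid genes, covering side branches, sterol sensing, transport and oxysterol metabolism, 33 of 38 measured were expressed, with 20 higher, 12 lower and 1 at exactly 0. Their median was 0.03, the same as that of all expressed genes, and the count of higher genes was 16 after loess subtraction and 25 after median centring, while the share over all expressed genes was 47.4% and 61.8% under the same settings. With all probe sets of a gene averaged, 22 of 31 were higher with a median of 0.075, beside 59.1% and 0.032 over all expressed genes. In the main setting 5 of the 33 reached 0.25 and 1 reached -0.25. Of all expressed genes 7.60% and 6.40% did so. The highest were both lipoprotein receptors. Vldlr read 7.64 on the KO-labelled array and 7.21 on the WT-labelled array (0.43), and Scarb1, the receptor for high density lipoprotein, read 9.45 on the KO-labelled array and 9.10 on the WT-labelled array (0.35). The lowest were Lrp8, another lipoprotein receptor (8.36 on the KO-labelled array and 8.62 on the WT-labelled array, -0.26), and Nr1h3, which encodes LXR alpha (6.90 and 7.15 on the same arrays, -0.25). Ggps1, chosen after its value was seen, makes geranylgeranyl diphosphate from the same precursor as squalene, and read 10.01 on the KO-labelled array and 10.10 on the WT-labelled array (-0.09).

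Fatty acid synthesis and desaturation, the other branch under SREBP, was higher as well. Of 18 measured genes 15 were expressed, and 13 of these were higher on the KO-labelled array, with a median of 0.22, beside 56.9% higher among all expressed genes. In 7 of the 15 the difference reached 0.25 (7.60% of expressed genes), and in 3 it reached 0.5 (0.681%). The stearoyl-CoA desaturase gene Scd2 read 12.71 on the KO-labelled array and 11.91 on the WT-labelled array (0.80). Fads1, a desaturase of polyunsaturated fatty acids, read 8.20 on the KO-labelled array and 7.42 on the WT-labelled array (0.78). Its second expressed probe set gave -0.07, so its direction was not settled. The same held for Fads2, also past 0.5 and named after its value was seen. It was at 0.65, with expressed probe sets from -0.06 to 0.65. The 3 expressed probe sets of Scd2 gave 0.77 to 0.80, above the value of Dhcr7. The lowest were Thrsp (7.25 on the KO-labelled array and 7.59 on the WT-labelled array, -0.33) and the phosphatidate phosphatase gene Lpin1 (9.25 and 9.32 on the same arrays, -0.07).

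**Figure D3:**
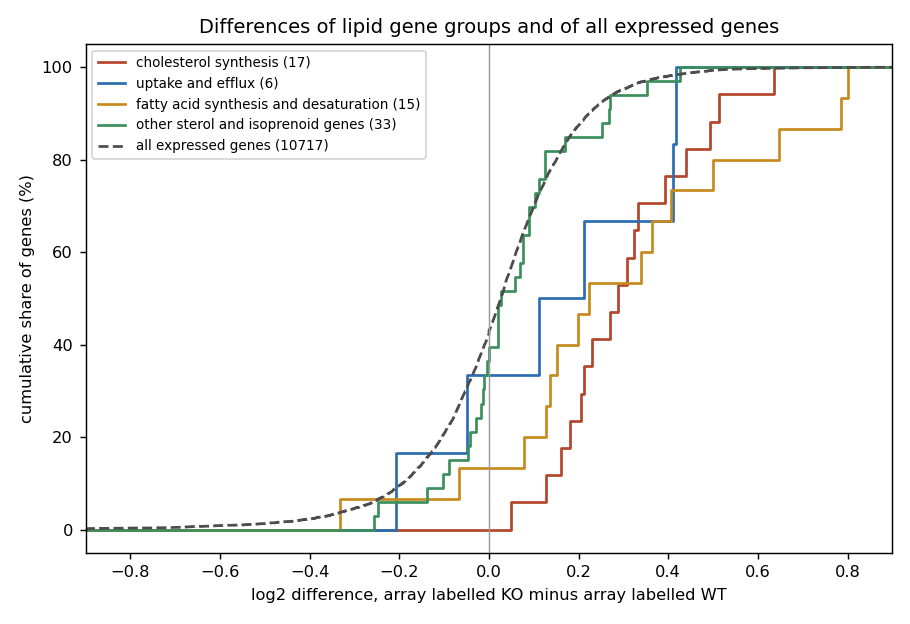
Cumulative share of genes (vertical axis, %) against the log2 difference (array labelled KO minus array labelled WT) for 4 lipid gene groups and all 10717 expressed genes, with the number of expressed genes in brackets. The curve of other sterol and isoprenoid genes runs close to that of all genes (both medians 0.03), and the synthesis curve begins at 0.05 and reaches its middle at 0.29.

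Other groups also differed between the arrays, against a background of 56.9% of expressed genes higher and 42.1% lower on the KO-labelled array. Of 21 genes of S phase and DNA replication 18 were higher on the KO-labelled array (median 0.26), from Cdc6 (1.09) and Pola1 (0.50) at the top to Gins1 (-0.10) and Cdt1 (-0.26) at the bottom. Of 17 interferon response genes 16 were lower (median -0.31), from Oasl2 (-1.63) and Cxcl10 (-1.05) at the bottom to Oasl1 (0.02, and -0.01 after loess subtraction) and Ddx58 (-0.10) at the top. Of 13 B cell markers 11 were higher (median 0.18), Spib (0.81) and Blk (0.50) the most and Bank1 (-0.18) and Blnk (-0.07) the least. The part of cell division, interferon signalling or B cell share in the sterol values was not tested.

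Since the synthesis genes moved together, the DNA before their start sites was read. RefSeq promoter windows, from 250 bases before to 50 bases after an annotated start in GRCm38.p6, were at hand for 21 of the 27 measured genes, some with several windows. Fdps, Fdft1, Sqle, Stard4, Abcg1 and Npc1 had none. On both strands 3 motifs were searched: TCACNCCAC, a form of the sterol regulatory element that SREBP binds, CCAAT, the site of the SREBP partner NF-Y, and GGGCGG, the site of SP1. None of these motifs contains another, and each was counted separately. A match is a description of letters, not evidence of binding.

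The window of Hmgcs1 is shown because it was the only one among these genes with a match to TCACNCCAC, a motif found in 1.46% of expressed genes with a window. It lies on the plus strand at chr13:119690101-119690400, with 1 match to this motif, beginning at position -137 relative to the start, and 4 to CCAAT, all in capitals. Dhcr7 and Abca1 were added after their values were seen, as the genes with the highest and the lowest difference. The third of 3 windows of Dhcr7, at chr7:143829964-143830263 on the plus strand, is the one that holds CCAAT, at 2 places in capitals. The Abca1 window, at chr4:53159846-53160145 on the minus strand, holds neither of these 2 motifs and so has no capitals.
Hmgcs1: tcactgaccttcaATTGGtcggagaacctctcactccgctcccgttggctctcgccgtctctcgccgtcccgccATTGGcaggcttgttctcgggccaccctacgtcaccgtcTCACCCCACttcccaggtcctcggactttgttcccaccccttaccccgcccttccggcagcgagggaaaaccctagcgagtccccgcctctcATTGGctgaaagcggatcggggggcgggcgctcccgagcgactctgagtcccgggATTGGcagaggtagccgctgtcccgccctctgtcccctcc
Dhcr7: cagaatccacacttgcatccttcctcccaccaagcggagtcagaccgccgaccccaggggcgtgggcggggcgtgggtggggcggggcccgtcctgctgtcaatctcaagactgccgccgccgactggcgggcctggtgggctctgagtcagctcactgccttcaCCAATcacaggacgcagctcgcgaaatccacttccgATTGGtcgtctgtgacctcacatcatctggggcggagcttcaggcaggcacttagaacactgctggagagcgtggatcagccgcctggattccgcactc
Abca1: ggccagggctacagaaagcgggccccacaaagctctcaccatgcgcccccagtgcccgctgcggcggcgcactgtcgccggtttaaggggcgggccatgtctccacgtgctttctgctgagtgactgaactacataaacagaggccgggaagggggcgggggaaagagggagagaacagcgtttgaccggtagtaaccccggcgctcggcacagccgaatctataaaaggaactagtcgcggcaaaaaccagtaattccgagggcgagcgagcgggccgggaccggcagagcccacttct

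The CCAAT letters were common to the synthesis genes. All 14 measured synthesis genes with a window held CCAAT on one strand or the other in at least 1 window, as did 3 of 4 regulators (not Scap) and 2 of 3 uptake and efflux genes (Mylip and Npc2, not Abca1). The window of Acat2, a synthesis gene with no value here, held no match. Among 8684 expressed genes with a window 43.1% held it. Mvk had 5 matches, and Hmgcs1 and Nsdhl had 4 each, yet their differences of 0.18, 0.27 and 0.33 were not the largest, while Lss (0.51) had 1. GGGCGG was present in 13 of these 14 synthesis genes, in all 4 regulators and in all 3 uptake and efflux genes, against 68.3% of expressed genes with a window. Genes with several windows had more chances of a match.

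**Figure D4:**
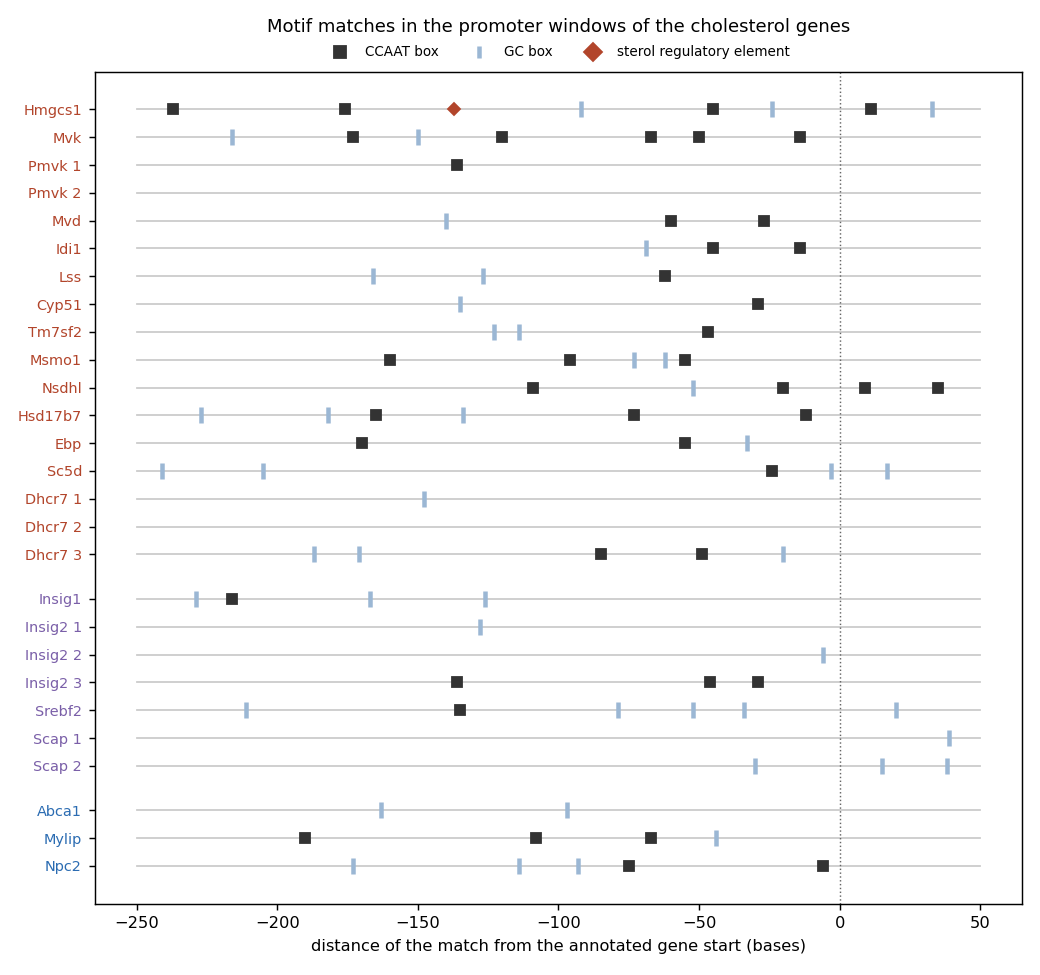
Position of each motif match (horizontal axis, bases from the annotated start, negative before it) in the promoter windows of the cholesterol genes, 1 line per window, with gene names coloured by role (red synthesis, purple SREBP regulators, blue uptake and efflux). Squares are CCAAT, bars GGGCGG and the diamond the 1 match to TCACNCCAC in Hmgcs1. The 14 synthesis genes drawn each have a square on at least 1 of their lines.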

How the data were processed

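RNA of 2 mouse B cell cultures was read on 1 Affymetrix array each, from biotin-labelled cRNA, per the labels' protocols. The deposited values are log2 intensities of 45101 probe sets between 3.09 and 15.4, a unit read from the values. How the authors summarised and normalized them is not given in the sources used here. Once sorted, the values of both arrays were within 0.063 of each other, and 1143 probe sets had identical values on both, none of them the brightest of a cholesterol gene, so a difference in total RNA per cell would not be visible. Groups follow the genotype entries. Probe sets were named from the platform annotation, which listed 1 gene for 34945 probe sets, several for 932 and none for 9160, and 64 were controls. The brightest singly named probe set stood for a gene. The text names all measured members, the 2 highest and 2 lowest expressed genes of each further list of pathway, S phase, interferon and B cell genes, and others as marked. Of the other marker lists, T cell markers had a median of -0.02 (4 expressed of 6 measured) and dendritic cell markers of -0.27 (3 of 7). Members and lists were chosen with earlier results of these data known, so no list is independent support. The procedure was tested on simulated data with known differences. Alternatives averaged all probe sets of a gene or used only plain _at probe sets, or applied quantile normalization, loess subtraction (span 0.3), median centring, filters at the 50th and 75th percentile of levels and, added after the data were seen, leaving out Stard4 or Abca1. Tools were matplotlib 3.10.9, statsmodels 0.14.6, NumPy 2.4.6, pandas 2.3.3 and Python 3.11.15.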

Additional observations from a re-analysis of the deposited data

How the results depend on the processing

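Under 7 other ways of processing the median difference of the synthesis genes stayed between 0.25 and 0.32, and that of the regulators between 0.14 and 0.20. The filter at the 50th percentile, among these 7, removed no cholesterol gene and so could only repeat the main values. With loess subtraction 16 of 17 synthesis genes were higher on the KO-labelled array. With plain _at probe sets or the 75th percentile filter 16 were left and all 16 were higher, and otherwise all 17 were. Between 8 and 11 synthesis genes reached 0.25. With only genes at or above the 75th percentile of levels, Abca1, Npc1 and Tm7sf2 dropped out. The uptake and efflux median was then 0.26 over the 4 genes left, and the gap to synthesis 0.017. Insig2 turned to -0.035 with quantile normalization and to -0.046 with loess subtraction, and Pmvk to -0.0003 with loess subtraction. The cause was not tested. No other gene of the 27 changed sign under these settings. With Stard4 left out, added after the data were seen, the uptake and efflux median was 0.11 and the gap 0.17, and with Abca1 left out, also added then, they were 0.21 and 0.08. No array could be left out and no paired analysis was possible because there is 1 array per label. Intensities near the expression threshold, as for Abca1, limit what the arrays can show.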
